A study of Mus musculus with 6 samples.

Results

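The genes described here encode the clathrin machinery, the set of proteins that builds, loads, pinches off and dismantles the coated vesicles by which a cell takes up receptors from its surface. The rule took the genes whose symbols stand on a list of 40 coat, adaptor, dynamin and BAR-domain genes, and all 40 were found among the 51912 genes of the files. The list was chosen by function, with earlier results of the same contrast known and Bin1 singled out for its level in the CD206-positive cells. The levels, fold changes and calls below are therefore a description of these genes. Of the 40 genes, 34 passed the filter on low counts and 6 did not.

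The samples were cells of the aorta-gonad-mesonephros (AGM), the region around the dorsal aorta of the embryo, from MacGreen (Csf1r-EGFP) mice at E10.5. In this strain the promoter of Csf1r, the receptor of macrophage colony-stimulating factor, drives the green reporter, which marks macrophages and also some of their precursors. GFP+CD206- cells (CD206neg below) and GFP+CD206+ cells (CD206pos below) were sorted by antibody to CD206, the mannose receptor, after collagenase digestion. Each of 3 litters gave 1 library of each population, each from 3 to 5 pooled AGM, so that all 6 libraries share the transgene, the stage and the digestion and differ in the sorted antigen. Levels are TMM-scaled CPM, that is, reads brought to a common library size, with means ± SD over 3 libraries, and log2 fold changes are CD206pos minus CD206neg. The fold changes carry their standard error (SE), and a gene is called when its adjusted p is under 0.05 in edgeR's quasi-likelihood test across 12668 genes.

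Clathrin is a lattice of heavy and light chains that cannot bind membrane by itself. The adaptor complex AP-2 ties it to the lipids of the plasma membrane and to the tails of cargo receptors, early scaffold proteins place the pit, BAR-domain proteins bend the membrane, dynamin cuts the neck, and a lipid phosphatase and a chaperone cofactor strip the coat. The mannose receptor is itself taken up through such pits, and macrophages rely on this route beside phagocytosis and macropinocytosis.

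The libraries held 16730846 to 18214283 reads in genes, so that 3 reads correspond to 0.16 to 0.18 CPM. Mrc1, the gene of the sorted antigen, was at a mean of 93.9 CPM in CD206neg and 1585 CPM in CD206pos. Of 7 macrophage markers 4 were called higher in CD206pos, and their summed level was 3144 to 3942 CPM in CD206neg and 4495 to 7124 CPM in CD206pos. Markers of blood precursors were higher in CD206neg. Of 6 progenitor markers 5 were called lower in CD206pos, with sums of 828 to 1033 CPM against 108 to 169 CPM. All 6 tested of 10 granulocyte markers were called lower, with sums of 1861 to 2855 CPM against 17.4 to 69.7 CPM, and 2 of the 4 tested of 7 megakaryocyte markers, with sums of 87.1 to 142 CPM against 1.90 to 5.73 CPM. Summed markers of endothelium (7 genes, none called) were at 99.7 to 155 CPM against 31.2 to 66.8 CPM. Of the erythroid, neural and mesenchymal lists (10, 12 and 8 genes) only 5, 2 and 5 genes were tested, and none was called. The erythroid sum was 4.40 to 7.05 CPM against 12.7 to 16.2 CPM, of which Epor made up 9.60 to 11.7 CPM in CD206pos. The neural sum was 10.9 to 22.5 CPM against 20.7 to 35.3 CPM, with Gap43 at 0 to 2.31 CPM against 9.83 to 22.7 CPM and with Snap25 and Dcx at 0 reads. The mesenchymal sum was 3.16 to 74.9 CPM against 1.95 to 60.8 CPM. These differences in marker levels move with the same contrast as each result below, and their part in it was not tested.

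In CD206pos cells, the genes for clathrin light chain a, 3 subunits of AP-2, the scaffolds Eps15 and intersectin 1, and the membrane-bending proteins Bin1 and endophilin A2 were at higher levels than in CD206neg cells. The differences ran from 1.76-fold for Ap2s1 to 5.59-fold for Itsn1. A single early pit gene, Fcho1, went the other way and was at 0 to 2.57 CPM in CD206pos. The genes for dynamin 2, the uncoating factor Gak, clathrin light chain b and AP-2 subunit beta differed by less than 1.3-fold. Of the 34 tested genes 8 were called higher and 1 lower, against 2.97% of all tested genes called higher and 1.90% called lower, and against 4.30% called higher among the 8332 tested genes with a mean of at least 10 CPM, a level that 30 of the 34 reached. The median log2 fold change was 0.47 over the 34 genes and -0.0043 over all tested genes, and 27 of the 34 lay above 0. The groups did not overlap for 16 genes in the higher direction and 2 in the lower (12.8% and 11.8% of all tested genes). Because this contrast was in view when the list was drawn up, nothing is read from these shares. In bulk RNA, fewer cells of a type and less RNA per cell cannot be told apart.

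**Figure D1:**
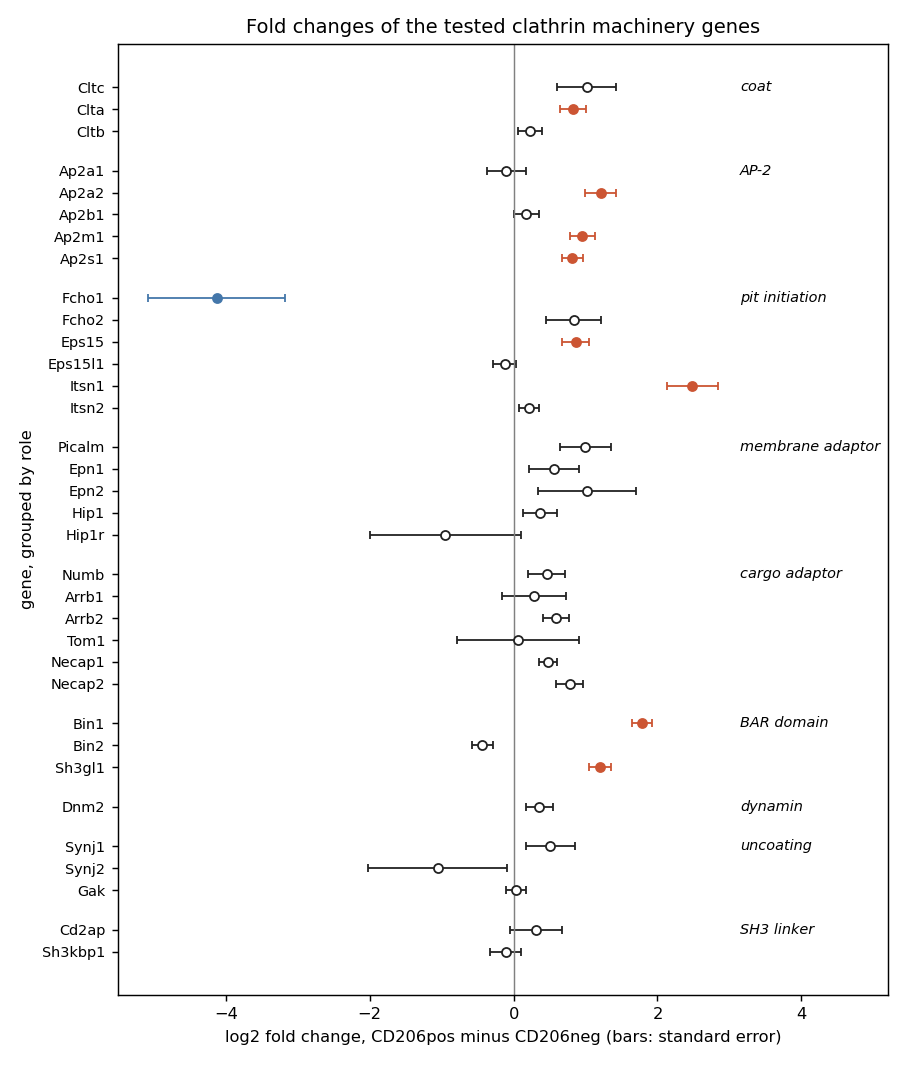
Log2 fold change (CD206pos minus CD206neg, x axis) with its standard error for the 34 tested clathrin machinery genes, grouped by role on the y axis. Filled orange-red points are the 8 genes called higher, the filled blue point is Fcho1, called lower at -4.13, and open points were not called.

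The difference in Bin1 was nearly the same in each litter. Bin1 encodes amphiphysin 2, whose BAR domain curves membranes into tubules and whose SH3 domain binds dynamin (ENSMUSG00000024381.15, GRCm38 chromosome 18, 32377217 to 32435736, plus strand). From litter 1 to litter 3, CD206neg cells held 75.2, 79.1 and 78.7 CPM of it, and CD206pos cells held 254, 283 and 266 CPM. Values of other genes are given in the same litter order. The groups lay far apart and neither varied much. The ratio within a litter was 3.38, 3.58 and 3.38, and the log2 fold change was 1.78 ± 0.13 (SE). It ranged from 1.72 to 1.82 when any of the 6 libraries was left out, with the gene called each time, and was 1.72 without litter 2, when it was not called.

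Bin2, the relative of Bin1 that blood cells express most and that acts in podosomes and phagocytosis, showed the opposite order. Its level was 973, 797 and 986 CPM in CD206neg and 602, 691 and 744 CPM in CD206pos. Every CD206pos library was below every CD206neg library, with a log2 fold change of -0.44 ± 0.14 (SE) that was not called in edgeR's test and was called by DESeq2. Per kb of exon, Bin2 remained the more abundant gene in each library, at 363 ± 41.6 against 31.7 ± 0.88 CPM per kb for Bin1 in CD206neg and 268 ± 28.3 against 109 ± 5.86 CPM per kb in CD206pos. Bin1 thus made up 7.39% to 9.28% of the summed Bin1, Bin2 and Amph level in CD206neg and 26.9% to 30.3% in CD206pos. Amph itself, the amphiphysin of nerve terminals, had 4 reads in CD206neg replicate 3 and none elsewhere.

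Among the endophilins, BAR proteins that recruit dynamin and synaptojanin to the neck of the pit, a single gene carried nearly all reads. Sh3gl1, encoding the widely expressed endophilin A2 (ENSMUSG00000003200.9, chromosome 17, 56016753 to 56036637, minus strand), measured 196, 174 and 164 CPM in CD206neg against 338, 442 and 449 CPM in CD206pos. CD206pos replicate 1 was the lowest of its group and still above all CD206neg libraries. The mean rose 2.298-fold, with a log2 fold change of 1.2004 ± 0.157 (SE) that lay between 1.10 and 1.32, called each time, when any library was left out. Without litter 2 it was 1.09 and without litter 3 it was 1.04, and it was not called in either fit. The brain endophilins Sh3gl2 and Sh3gl3 had 12 reads in CD206neg replicate 3 and 2 reads in CD206pos replicate 3, and none in the other libraries.

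**Figure D2:**
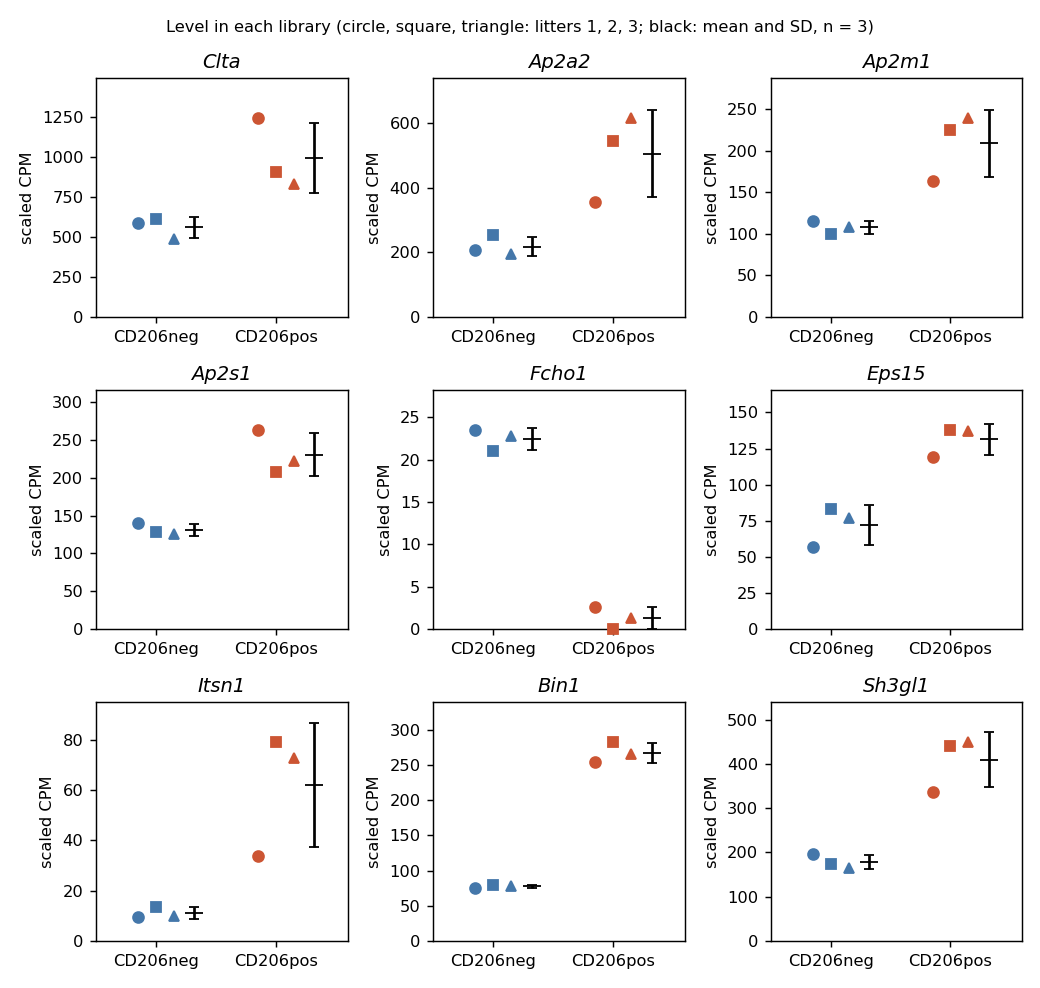
Scaled CPM (y axis, starting at 0) of the 9 called genes in each CD206neg (blue) and CD206pos (orange-red) library, with symbols for litters and the mean and SD in black (n = 3). In each panel the groups are separate, tightly so for Bin1 (75.2 to 79.1 against 254 to 283 CPM) and with a low CD206pos litter 1 for Itsn1 (33.7 CPM against 72.9 and 79.1 CPM).

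The coat genes were the clathrin heavy chain Cltc and the light chains Clta and Cltb, which regulate assembly of the lattice. Clta (ENSMUSG00000028478.18, chromosome 4, 44004452 to 44032846, plus strand) measured 585, 611 and 487 CPM in CD206neg against 1244, 910 and 834 CPM in CD206pos. The CD206pos library of litter 1 was the highest, and the groups did not overlap. The mean was 1.78-fold higher, with a log2 fold change of 0.83 ± 0.18 (SE). Cltb was at 51.4, 52.8 and 49.7 CPM in CD206neg and 59.4, 62.8 and 58.4 CPM in CD206pos. Its groups did not overlap either, and its log2 fold change of 0.23 ± 0.17 (SE) was not called. Per kb of exon, Clta held 96.4% to 98.3% of the light chain level in every library.

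Cltc was at 113, 420 and 379 CPM in CD206neg and 492, 675 and 676 CPM in CD206pos. CD206neg replicate 1 stood far below the others, and the groups did not overlap. The log2 fold change of 1.01 ± 0.41 (SE) was not called, was 0.62 without that library, where it was not called either, and was 0.76 without both libraries of litter 1, where it was called. CD206neg replicate 1 was the lowest of its group for 15 of the 34 genes, among them Cltc, Fcho2, Picalm and Synj1. CD206pos replicate 1 was the lowest of its group for 21 of the 34 genes. These numbers were not taken over all tested genes, so nothing about the machinery is read from them.

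AP-2 is built from a large alpha subunit (Ap2a1 or Ap2a2), a large beta subunit (Ap2b1), and the medium and small subunits Ap2m1 and Ap2s1, which hold the sites for tyrosine and dileucine sorting signals. Ap2a2, Ap2m1 and Ap2s1 were called higher in CD206pos, and Ap2a1 and Ap2b1 were not called. Ap2a2 (ENSMUSG00000002957.11, chromosome 7, 141562173 to 141633011, plus strand) measured 207, 253 and 194 CPM in CD206neg against 355, 546 and 616 CPM in CD206pos. No CD206neg library reached the CD206pos range, and the log2 fold change was 1.21 ± 0.22 (SE). Its paralog Ap2a1 lay at 46.1, 50.04 and 27.9 CPM against 47.8, 33.2 and 34.8 CPM, with groups that overlapped (-0.10 ± 0.28, SE). Per kb of exon, Ap2a2 was 77.3% to 84.1% of the alpha subunit level in CD206neg and 84.9% to 93.1% in CD206pos. Of the exon bases of Ap2a1, 16.7% also lie in exons of Fuz on the opposite strand, where reads were not counted for either gene.

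Ap2m1 (ENSMUSG00000022841.14, chromosome 16, 20535478 to 20544909, plus strand) measured 115, 99.1 and 108 CPM in CD206neg against 163, 224 and 239 CPM in CD206pos (log2 fold change 0.95 ± 0.18, SE). Ap2s1 (ENSMUSG00000008036.11, chromosome 7, 16738410 to 16749294, plus strand) measured 140.0, 128 and 126 CPM in CD206neg against 263, 207 and 222 CPM in CD206pos (log2 fold change 0.81 ± 0.15, SE). For both, each CD206pos library was above each CD206neg library. Ap2b1 was at 77.2, 69.8 and 73.0 CPM in CD206neg and 69.3, 86.2 and 92.9 CPM in CD206pos, which overlapped (0.17 ± 0.17, SE). Per kb of exon the subunits differed widely in level, with Ap2s1 the highest at 89.1 ± 5.24 and 157 ± 19.6 CPM per kb in CD206neg and CD206pos and Ap2b1 at 8.38 ± 0.42 and 9.46 ± 1.38 CPM per kb.

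The DNA upstream of the 3 called AP-2 genes is shown as a description, and its part in their levels was not tested. That of Ap2a1 and Ap2b1, which were not called, is not shown. The runs come from RefSeq (GRCm38.p6) and end at the base before the first base of the gene in the deposited files, and capitals mark matches on either strand to an E-box (CACGTG) or a GC box (GGGCGG).
Ap2a2, chr7:141561930-141562172 (plus strand): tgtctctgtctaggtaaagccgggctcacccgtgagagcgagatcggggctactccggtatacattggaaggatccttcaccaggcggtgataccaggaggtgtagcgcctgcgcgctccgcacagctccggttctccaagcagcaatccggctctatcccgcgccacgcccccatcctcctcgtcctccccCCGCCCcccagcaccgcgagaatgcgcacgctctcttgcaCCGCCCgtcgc
Ap2m1, chr16:20535230-20535477 (plus strand): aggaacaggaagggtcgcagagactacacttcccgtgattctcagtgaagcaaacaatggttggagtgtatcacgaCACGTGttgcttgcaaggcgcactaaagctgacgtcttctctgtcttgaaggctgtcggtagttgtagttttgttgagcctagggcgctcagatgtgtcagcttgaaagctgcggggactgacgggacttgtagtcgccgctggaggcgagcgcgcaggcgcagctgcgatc
Ap2s1, chr7:16738194-16738409 (plus strand): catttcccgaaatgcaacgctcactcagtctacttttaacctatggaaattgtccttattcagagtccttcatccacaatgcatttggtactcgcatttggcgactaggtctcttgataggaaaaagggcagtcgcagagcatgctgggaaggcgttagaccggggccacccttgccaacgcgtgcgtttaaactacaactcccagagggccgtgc
The printed run of Ap2m1 holds an E-box, that of Ap2a2 holds 2 GC boxes, and that of Ap2s1 holds neither motif. The runs stop short of the whole 300-base RefSeq windows (250 bases before to 50 after a gene's start), in which Ap2a2, Ap2m1 and Ap2s1 each hold a GC box. Of the 29 tested machinery genes with an entry, 5 (17.2%) held an E-box in that window, against 12.0% of the 9512 tested genes with an entry. A GC box stood in 25 of the 29 (86.2%), against 68.7% of those tested genes. A match is a description of the letters and not of binding.

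The genes that start a pit differed most among themselves. Fcho1 and Fcho2 encode F-BAR proteins that arrive among the first and open AP-2. Fcho1 (ENSMUSG00000070000.13, chromosome 8, 71708387 to 71725716, minus strand) measured 23.5, 21.0 and 22.8 CPM in CD206neg against 2.57, 0 and 1.27 CPM in CD206pos, that is, 42, 0 and 22 reads in the latter. The mean was 17.5-fold lower in CD206pos, with a log2 fold change of -4.13 ± 0.96 (SE) in edgeR's fit and of -6.45 in that of limma-voom. The call was lost with the litter as a block (-4.63) and without any single library other than CD206pos replicate 2 (-5.13 to -4.09), which had no read. Fcho2 was at 9.20, 27.9 and 21.1 CPM in CD206neg and 31.5, 34.2 and 38.1 CPM in CD206pos, with groups that did not overlap and a log2 fold change of 0.83 ± 0.38 (SE), not called, which was 0.50 without CD206neg replicate 1. By level per kb, Fcho1 was 46.9% to 74.9% of the summed Fcho level in CD206neg and 0% to 8.72% in CD206pos. The progenitor and granulocyte marker sums, given above, move in the same direction as Fcho1, and their part in its difference was not tested.

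Intersectins are scaffolds with EH and SH3 domains that join Eps15, dynamin and actin regulators at the pit. Itsn1 (ENSMUSG00000022957.19, chromosome 16, 91729281 to 91920597, plus strand) measured 9.48, 13.7 and 10.04 CPM in CD206neg against 33.7, 79.1 and 72.9 CPM in CD206pos. CD206pos replicate 1 was less than 50% of the other CD206pos libraries and 3.55 times its litter's CD206neg library. The log2 fold change of 2.48 ± 0.36 (SE) lay between 2.25 and 2.78, called each time, when any library was left out, and was 2.42 without litter 2 and 2.26 without litter 3, where it was not called. Itsn2 was at 102, 113 and 105 CPM in CD206neg and 124, 127 and 119 CPM in CD206pos, a small difference without overlap (0.21 ± 0.14, SE) that was not called. The share of Itsn1 in the intersectin level per kb was 5.30% to 6.81% in CD206neg and 14.0% to 27.3% in CD206pos, and Itsn2 led in all 6 libraries.

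The upstream runs of the 2 genes with the largest differences in opposite directions, Itsn1 and Fcho1, are printed in the same way.
Itsn1, chr16:91729121-91729280 (plus strand): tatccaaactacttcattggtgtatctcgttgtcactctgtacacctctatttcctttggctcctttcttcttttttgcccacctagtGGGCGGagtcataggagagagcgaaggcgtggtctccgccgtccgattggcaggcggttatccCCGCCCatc
Fcho1, chr8:71725717-71725931 (minus strand): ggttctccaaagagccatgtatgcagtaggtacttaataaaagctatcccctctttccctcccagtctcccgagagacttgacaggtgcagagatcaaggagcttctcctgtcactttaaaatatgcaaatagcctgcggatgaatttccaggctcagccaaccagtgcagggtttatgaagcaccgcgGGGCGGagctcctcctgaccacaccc
The Itsn1 run holds 2 GC boxes, the Fcho1 run holds 1, and neither holds an E-box.

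Eps15, an EH-domain scaffold that binds AP-2 and ubiquitinated cargo (ENSMUSG00000028552.13, chromosome 4, 109280268 to 109387817, plus strand), measured 56.5, 83.1 and 77.0 CPM in CD206neg against 119, 138 and 137 CPM in CD206pos. All CD206pos libraries were higher, with a log2 fold change of 0.86 ± 0.19 (SE). Its paralog Eps15l1 was at 83.5, 79.8 and 84.1 CPM against 66.7, 76.2 and 84.1 CPM, which overlapped (-0.12 ± 0.16, SE). By level per kb, Eps15 was 39.7% to 50.3% of the pair in CD206neg and 61.4% to 63.7% in CD206pos, so that the leading gene of the pair was Eps15 in each CD206pos library.

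**Figure D3:**
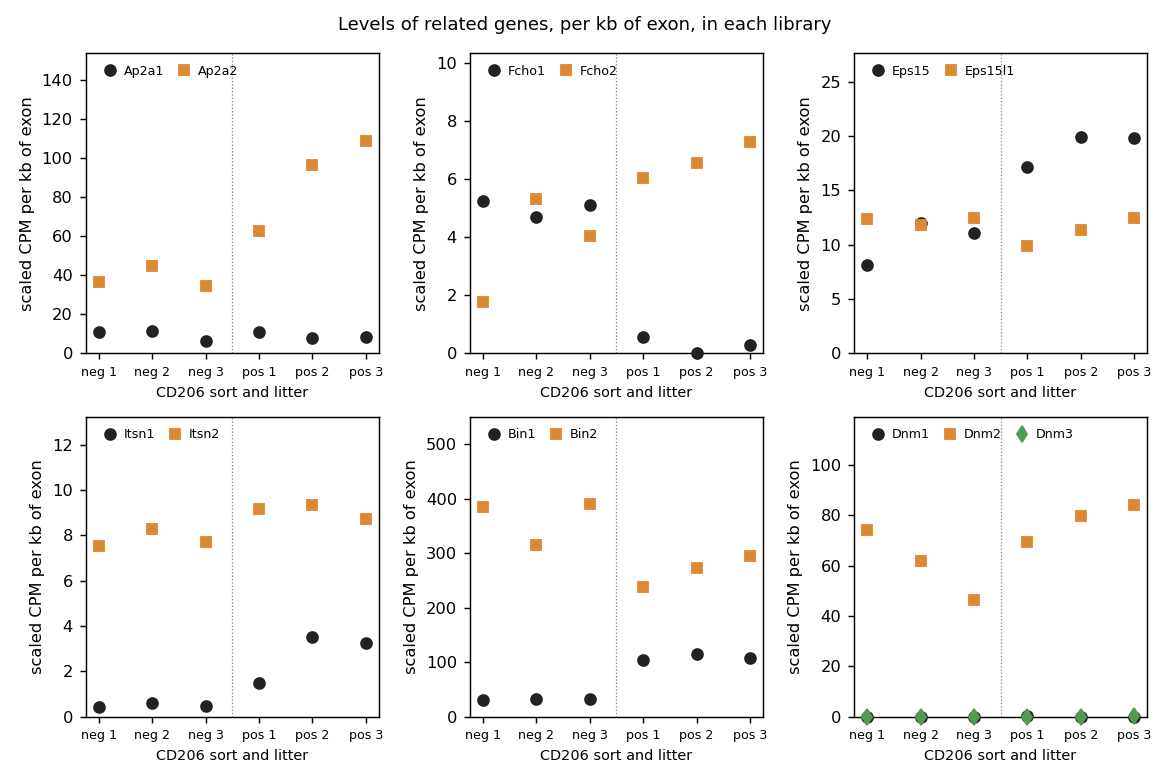
Scaled CPM per kb of exon (y axis, from 0) of related genes in each of the 6 libraries (x axis, CD206neg then CD206pos, litters 1 to 3). The CD206pos libraries lie above all CD206neg libraries for Ap2a2, Fcho2, Eps15, Itsn1 and Bin1, and narrowly so for Itsn2. They lie below them for Fcho1 and Bin2, and the groups overlap for Ap2a1, Eps15l1 and Dnm2. Of these, Fcho2, Itsn2, Bin2, Ap2a1, Eps15l1 and Dnm2 were not called. Dnm2 is the dynamin gene detected above trace level (Dnm1 and Dnm3 had at most 16 reads).

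Of 15 families of related genes on the list, 13 were led by the same gene in all 6 libraries per kb of exon, and the Fcho and Eps15 pairs were not. The length used is that of all annotated exons of a gene, so isoforms are not resolved, and the leading gene of each family was the same without division by length. The nerve-terminal members were at or near 0 reads. Snap91, the neuronal counterpart of Picalm, had 0 reads in all 6 libraries, Dnm1 had 0 to 6 reads and Dnm3 2 to 16 reads. Dnm2, the dynamin of most tissues, was at 396, 330.3 and 246 CPM in CD206neg and 371, 424 and 448 CPM in CD206pos, which overlapped (log2 fold change 0.36 ± 0.18, SE, not called), and made up a mean of 99.98% (CD206neg) and 99.92% (CD206pos) of the dynamin level per kb.

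None of the membrane and cargo adaptor genes was called in edgeR's test. Of the 11 tested, DESeq2 called 4 higher and limma-voom 1, beside 660 and 531 of all 12668 tested genes called higher. At an unadjusted p under 0.05 in edgeR's test stood 4 of the 11. The share of all tested genes at that p was not taken, so nothing is read from that number. Picalm, encoding the lipid-binding adaptor that sets vesicle size and carries SNARE proteins, was at 47.9, 88.6 and 135 CPM in CD206neg and 147, 236 and 160 CPM in CD206pos (1.00 ± 0.35, SE, and 0.69 without CD206neg replicate 1). The CD206pos libraries were higher in every litter, by 1.18-fold in litter 3 and 3.06-fold in litter 1. Necap2, which binds AP-2 and helps to recycle receptors, was at 249, 204 and 257 CPM in CD206neg and 313, 406 and 501 CPM in CD206pos. Its groups did not overlap, and its log2 fold change of 0.78 ± 0.19 (SE) missed the threshold. It passed with the litter as a block (0.76), without CD206pos replicate 1 (0.94), with no low-count filter or a stricter one (both 0.78), with DESeq2 (0.77) and with limma-voom (0.86). The closely related Necap1 (0.48 ± 0.13, SE) and the beta-arrestin gene Arrb2 (0.59 ± 0.18, SE), whose product brings G protein-coupled receptors to the pit, also had CD206pos libraries all above the CD206neg libraries. Arrb1, at 19.0, 41.8 and 36.4 CPM in CD206neg and 17.4, 52.1 and 48.8 CPM in CD206pos, was low in litter 1 of both groups.

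The other adaptors differed within the spread of the libraries. The epsin genes Epn1 and Epn2, the actin linker gene Hip1 and the Notch regulator gene Numb had overlapping groups and log2 fold changes between 0.37 and 1.02. Hip1r and Tom1 were at 0.31 to 2.67 CPM in every library. Of the uncoating genes, Gak, encoding the cofactor by which the chaperone Hsc70 strips clathrin, was at 184, 205 and 209 CPM in CD206neg and 185, 210.0 and 218 CPM in CD206pos, the value nearest 0 among the 34 (0.03 ± 0.14, SE, and -0.06 with library totals in place of TMM). The phosphatase genes Synj1 (0.51 ± 0.34, SE) and Synj2 (-1.05 ± 0.97, SE, at most 5.68 CPM) overlapped as well. Sh3kbp1 and Cd2ap, whose products link receptor ubiquitination to endophilins and actin, did so too, with Sh3kbp1 at 178, 185 and 219.7 CPM in CD206neg and 128, 186 and 226 CPM in CD206pos (-0.11 ± 0.21, SE).

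Across the 9 called genes the adjusted p in edgeR's test ran from 0.00077 (Bin1) to 0.047 (Fcho1), values given as a description since the list was made with them known. Bin1, Itsn1 and Sh3gl1 were called in all 6 fits that left out 1 library. Ap2a2, Ap2m1 and Ap2s1 were called only without CD206pos replicate 1, Clta only without CD206pos replicate 3, and Eps15 in none of the 6, with log2 fold changes of 1.02 to 1.41, 0.82 to 1.10, 0.71 to 0.86, 0.63 to 0.91 and 0.71 to 0.98. The number of machinery genes called higher was 3 without any single CD206neg library, 7 without CD206pos replicate 1, 3 without CD206pos replicate 2 and 4 without CD206pos replicate 3. Over all tested genes, 165, 123 and 201 were called higher without CD206neg replicates 1, 2 and 3. Without CD206pos replicates 1, 2 and 3 these were 355, 130 and 168. Of the machinery genes, 6 were called higher without litter 1, 0 without litter 2 and 1 (Bin1) without litter 3. Over all tested genes these fits called 214 of 13103, 2 of 13016 and 73 of 12812 higher. With the litter as a block 9 machinery genes were called higher, Necap2 being added, and with DESeq2 12. Of all 12668 tested genes, the litter block called 436 higher and DESeq2 660, against 376 in the reported fit.

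**Figure D4:**
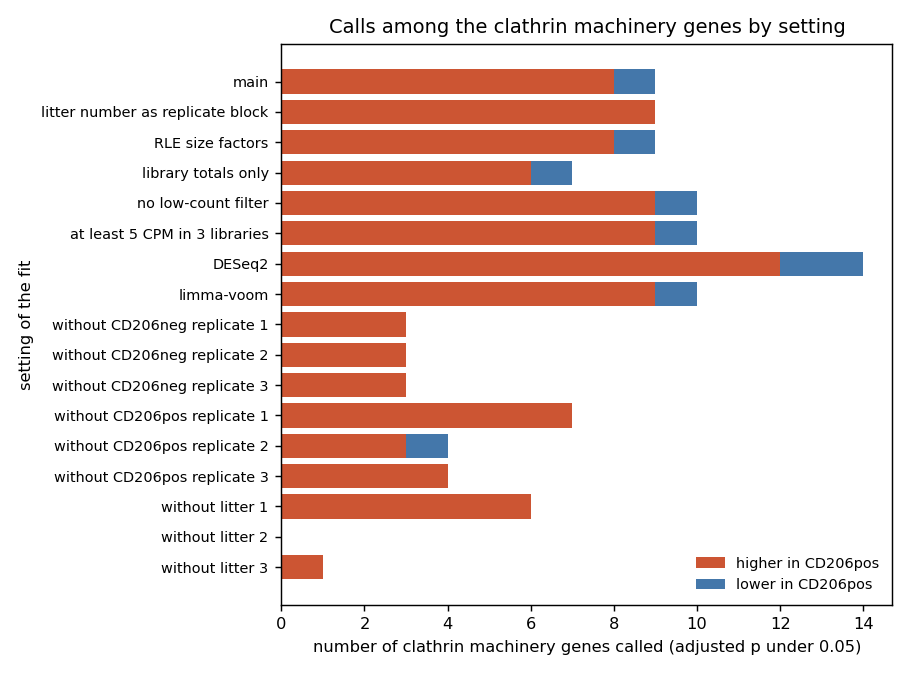
Number of clathrin machinery genes called higher (orange-red) or lower (blue) in CD206pos (x axis) in the fit reported here and under each alternative (y axis). Calls number 8 higher and 1 lower as reported, 12 and 2 with DESeq2, and 0 without litter 2. Over all tested genes the same fits call 376 and 241, 660 and 550, and 2 and 1.

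Genes of the same route that are not on the list of 40 were taken by function in 3 further lists. These lists, too, were written with earlier results of these data known, so their counts are a description. Of 35 further coated pit genes 31 were tested, and 3 were called higher and none lower, beside 2.97% and 1.90% of all tested genes (median log2 fold change 0.17). Dab2, the adaptor for receptors of the LDL receptor family, was at 605, 766 and 646 CPM in CD206neg and 3187, 4715 and 4716 CPM in CD206pos (2.64 ± 0.19, SE, adjusted p = 0.00077 in edgeR's test). It was called without any single library and not without litter 2 (2.63). Sh3glb1, encoding the endophilin B1 of intracellular membranes, rose 1.87-fold (adjusted p = 0.031), and Fchsd2, encoding an F-BAR protein that promotes actin assembly at pits, rose 2.02-fold (adjusted p = 0.038). The Sh3glb1 call held without CD206pos replicate 3 and was lost without each other library (0.72 to 0.96), and that of Fchsd2 held without CD206neg replicate 2 and was lost without each other library (0.88 to 1.10). Neither was called without any of the litters (0.75 to 0.96 for Sh3glb1 and 0.78 to 1.23 for Fchsd2).

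Of 27 clathrin adaptor genes of the Golgi and endosomes 24 were tested, all at a mean of at least 10 CPM, and 1 was called higher and none lower, a share near the 4.30% called higher among all tested genes of that level (median 0.18). Ap1b1, the beta subunit of the Golgi adaptor AP-1, was at 241, 240.5 and 185 CPM in CD206neg and 395, 589 and 528 CPM in CD206pos (1.18 ± 0.19, SE, adjusted p = 0.0099). The call was lost without CD206neg replicate 2 (1.24), CD206pos replicate 2 (1.03), litter 2 (1.08) or litter 3 (1.00). Of 11 cargo receptor genes 9 were tested and 0 were called by edgeR, DESeq2 or limma-voom (median 0.24). Of all 12668 tested genes edgeR called 2.97% higher and 1.90% lower, DESeq2 660 and 550 genes, and limma-voom 531 and 283 genes. At an unadjusted p under 0.05 in edgeR's test stood 1 of the 9. The share of all tested genes at that p was not taken, so nothing is read from that number. Tfrc, the transferrin receptor and the textbook cargo of clathrin pits, chosen after its values were seen, was at 39.6, 71.9 and 62.8 CPM in CD206neg and 67.1, 81.3 and 91.2 CPM in CD206pos, with groups that overlapped (adjusted p = 0.40).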

How the data were processed

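The deposited files hold raw whole-number read counts per gene, which the authors made with featureCounts 1.5.2 over exons of the GENCODE vM14 primary assembly annotation, per the file headers. Exon lengths are those deposited in the same files. The file headers show no option for strand, multi-mapping or overlapping genes, so counting ignored strand, and reads in shared exons or mapping to several places are not counted. STAR 2.3 and the builds mm10 and GRCm38.p5 are named in the submitters' processing notes. Strandedness of the libraries is not given in these sources, and reads of antisense genes cannot be told apart. Symbols came from GENCODE M21 by gene ID, which matched 51633 of 51912.

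Differences were tested on these counts in R 4.3.3 with edgeR 4.0.16 (filterByExpr, TMM scaling, robust quasi-likelihood F test, Benjamini-Hochberg over the 12668 tested genes, all 6 libraries, no litter block), checked on simulated data. The SE is the log2 fold change divided by the square root of F. CPM per kb divides the scaled CPM by exon length. A family share is a gene's part of its family's summed CPM per kb. Replicates are separate litters. Litters pair the groups, since the series design names 3 litters and the titles number the AGM alike. Deviations from the group means correlated at 0.09, 0.04 and 0.18 within litters 1, 2 and 3. Between different litters they correlated at -0.15 to 0.06. No 2 libraries were copies. Given in full are Bin1, the called genes and the gene with the highest level per kb in each role. Some of their paralogs, and Cltc, Ap2b1 and Arrb1, were added after their values were seen. The members and lists were chosen with earlier results of these data known. Alternatives were the litter block, RLE or total scaling, other filters, DESeq2 1.42.0, limma-voom (limma 3.58.1), and leaving out libraries or litters.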

Additional observations from a re-analysis of the deposited data

How the results depend on the processing

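None of the 9 called genes changed direction under any alternative run. Among genes not called, Gak and Tom1 turned negative with library totals only, and Gak, Tom1, Ap2a1, Cd2ap and Sh3kbp1 each changed sign on leaving out some library or litter. The number of machinery genes called higher, 8, was 6 to 12 under the other scalings, filters, tests and the replicate block, and 0 to 7 on leaving out libraries or litters. The number called lower, 1, was 0 with the replicate block and 2 with DESeq2 (Fcho1 and Bin2), and 0 to 1 on leaving out libraries or litters. Besides the Fcho1 and Necap2 calls, the replicate block changed no call among the named genes. With library totals only, Clta and Eps15 were no longer called (log2 fold changes of 0.74 and 0.77), nor was Fchsd2 (0.93), and 273 genes were called higher and 284 lower, against 376 and 241 with TMM. Over all genes 617 were called, 1210 with DESeq2, and 3 to 561 on leaving out libraries or litters. The further coated pit genes called were 3, and 5 with at least 5 CPM in 3 libraries, 6 with DESeq2, 7 with limma-voom and 0 to 3 on leaving out libraries or litters. The Golgi and endosome adaptor genes called were 1, and 3 with DESeq2, 2 with limma-voom and 0 to 1 on leaving out libraries or litters. Fits with fewer libraries have fewer degrees of freedom, and the cause of the lost calls was not tested. Where a group is left with 2 libraries, the spread is pooled over both groups. Hip1r, Tom1, Synj2 and Epn2, at under 10 CPM in every library, were not called, with SEs of 1.05, 0.85, 0.97 and 0.69. How much of these SEs comes from depth and how much from spread between libraries was not tested. For the 6 genes that did not pass the filter on low counts, no difference was tested.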
